A study of Sus scrofa with 2 samples.

Results

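Short deep read pile-ups are places where many sequencing reads lie on very few bases of the pig genome. The members were found by pooling the aligned reads of both libraries, joining reads whose starts lay within 200 bases into regions, and keeping regions with at least 20 pooled reads outside a very deeply read block on chromosome 6 from 247440 to 259306. A kept region was a pile-up if it spanned at most 150 bases and held at least 200 pooled reads. Of 75532 kept regions, 306 met this rule. Width and pooled depth chose the members, so both are given as a description only. The strands and the split of reads between the libraries were not used to choose them. Read starts were used, since they set the edges and the width, and width limits how many positions a member can hold. The near surroundings also took part, because a region ended only where no further read of either library started within 200 bases. As the reads were pooled, a region could pass on the reads of a single library.

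The study sequenced poly(A) RNA from 2 cultures of pig embryonic cells taken between days 17 and 24 of gestation, with 1 library each. Primordial germ cells give rise to eggs and sperm, and the germ cell library (pEGC) came from colonies that such cells form in culture. Their medium held the factors LIF and SCF (10 ng/ml each) and bFGF (3 ng/ml), the dishes were layered with STO feeders, which are mouse fibroblasts stopped from dividing by mitomycin C, and no further treatment was given. Fetal fibroblasts (pFF) are connective tissue cells, and the culture text that their labels carry speaks of germ cell colonies only. Both cultures came from crosses of Danish Landrace sows with Yorkshire boars, although the series title names mini pigs. Neither the number of embryos behind a library nor any pooling is stated, and mouse feeder RNA that aligns to pig cannot be told apart from pig RNA. Each file listed 14324517 aligned reads of 34 bases on 19 chromosomes, of which 12910575 (pEGC) and 13672805 (pFF) lay in regions. The chromosome 6 block took 12.7% (pEGC) and 32.1% (pFF) of those. Levels are RPM, that is, counts divided by the library's reads in regions and multiplied by 1000000. With 1 library per culture every comparison is between 2 libraries, there is no replicate check and no p-value, and intervals (exact, 95%, Clopper-Pearson) cover counting error only. The intervals of ratios, strand shares and leading combinations treat every read as separate. Where reads are copies of 1 cDNA molecule, these intervals are too narrow. The files name no genes and their genome build is not given in the sources used here, so pile-ups are named by position in the files' own coordinates, which may be off by 1 base, and the cell types could not be checked against marker genes.

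In poly(A) RNA sequencing of this kind, messenger RNA is broken into fragments, copied from random primers into double-stranded cDNA and read from the ends of the fragments. Reads from a transcript then come from both strands and are spread along its exons, so a short internal exon shows as a short region and the exons of a gene as a row of such regions separated by introns. A short read that spans a splice junction has no unbroken match in the genome. Repeated copies of a read with the same start and strand can come from many RNA molecules or from copies of 1 cDNA molecule made during amplification, and the 2 cannot be told apart without molecular identifiers.

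The widest class of pile-ups, next to the limit of 150 bases, held the most members. The narrowest spanned 36 bases, the median was 115 bases and the widest spanned 150. Widths of 126 to 150 bases were held by 115 members, widths of 101 to 125 by 77, of 76 to 100 by 45, of 51 to 75 by 53 and of 50 or less by 16. Pooled reads ran from 200 to 13947 with a median of 311.5, so a typical member lay close to the depth threshold and a few stood far above it. The 5 members just above the depth threshold had 200 to 201 pooled reads and log2 ratios of pEGC over pFF from -0.92 to 2.71, and the 5 short regions just below it had 197 to 198 reads and ratios from -6.52 to 6.70. The 5 members next to the width threshold spanned 149 to 150 bases with ratios from -1.33 to 0.99, and the 5 deep regions just beyond it spanned 151 to 152 bases with ratios from -1.12 to 1.23. Together, the 306 members took 0.506% of the reads in regions in pEGC and 0.676% in pFF.

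Read positions were counted as distinct combinations of start and strand, of which a region of 150 bases can hold at most 234. Members held 3 to 129 such combinations over both libraries, with a median of 53, and filled a median of 38.0% of the combinations their width allowed. Many combinations (over 50) were found in 169 members, 11 to 50 in 125 and at most 10 in 12. A combination was read a median of 6.35 times per member, from 2.40 to 398 times. For comparison, the median was 4.08 in the 698 equally deep regions of 151 to 300 bases and 2.13 in all 14119 deep regions wider than 150 bases, where more positions are on offer.

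Strand balance divided the members into 3 groups of similar size. In 93 members less than 70% of the pooled reads lay on 1 strand (balanced), in 117 the heavier strand held 70% to under 90% (skewed), and in 96 it held 90% or more (one-sided). The heavier strand was F in 160 members and R in 146. One-sided regions made up 31.4% of the members, 18.1% of the deep regions of 151 to 300 bases and 2.40% of all wider deep regions, and 18.5% of the 5528 short regions with 20 to 199 reads. These sets differ in how many positions they hold, and no test of the difference was possible with these libraries. Counted by position, fewer members were lopsided: with each combination counted once, only 27 of the 306 members kept 90% or more on 1 strand. One-sided members had a median of 33 combinations, skewed members 57 and balanced members 70.

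**Figure D1:**
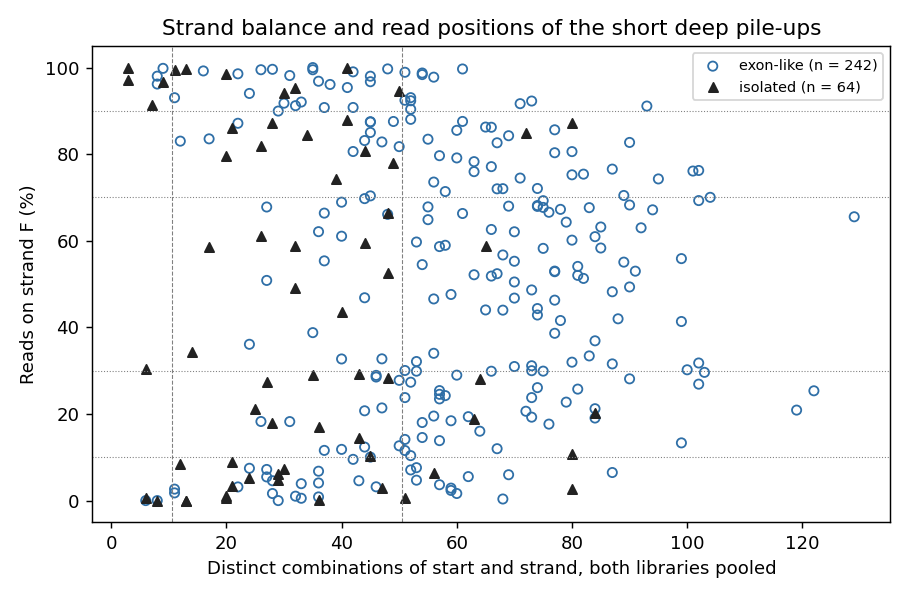
Share of pooled reads on strand F (vertical, percent) against the number of distinct combinations of start and strand (horizontal) for the 306 pile-ups, with open circles for the 242 that have another region within 10 kb and black triangles for the 64 that do not. Dotted lines mark 10, 30, 70 and 90% and dashed lines separate at most 10, 11 to 50 and over 50 combinations; 11 of the 12 members with the fewest combinations are one-sided, and the members with over 50 spread over the whole range.

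The 2 libraries were prepared from different cultures, so the places that reads pile on can be compared between them. Among the 266 members with at least 20 reads in each library, the same combination of start and strand was the most read in both libraries in 122 (45.9%). The reads per combination correlated between the libraries with a median Pearson r of 0.70 within a member (middle of the range 0.45 to 0.88), where combinations of a member share its region and are not independent. The share with the same leading combination was 67.0% of one-sided, 38.8% of skewed and 30.7% of balanced members, and 10 of the 12 members with at most 10 combinations. In the deep regions of 151 to 300 bases it was 39.8%. The order of the strand groups is partly fixed by how they were set. A leading combination includes a strand, and the pooled strand share that sets the groups limits how far the libraries can differ in strand. One-sided members also had fewer combinations to agree on, with a median of 33 against 70 in balanced members. These shares therefore do not show that likeness between the libraries depends on strand balance. The heavier strand was the same in both libraries in 230 of the 266 members. The pooled strand share that defines one-sided and skewed members nearly fixes this for them (88 of 88 and 99 of 103), and among balanced members, where the libraries were free to differ, it was the same in 43 of 75. The strand share differed by a median of 7.83 percentage points between the libraries and by over 20 points in 51 members.

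The deepest pile-up lay on chromosome 11 from 36304876 to 36304940. In these 65 bases it held 5933 reads in pEGC and 8014 in pFF, or 459.5 RPM and 586 RPM, a ratio of 1.27 in favour of pFF (1.23 to 1.32). Its reads used 33 combinations in pEGC and 29 in pFF, 27 of them shared, out of 64 possible. The strands differed between the libraries: 47.4% of the pEGC reads (46.2 to 48.7) and 15.4% of the pFF reads (14.6 to 16.2) lay on F. Not a single aligned read of either library was found within 10 kb on either side, and the next region was 2015 kb away.

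Next in depth came a member at the widest allowed width on chromosome 1, from 59802434 to 59802583, where pEGC had 1242 reads and pFF 3309 (2.52-fold higher in pFF, 2.36 to 2.69). It was skewed to R in both libraries, with 28.1% (25.6 to 30.7) and 14.8% (13.6 to 16.1) of the reads on F, and 145 other reads lay within 10 kb.

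A pair of narrow members on chromosome 14, each 56 bases wide, lay mostly on R. The first, from 97258459 to 97258514, had 366 reads in pEGC and 2226 in pFF (28.3 RPM and 162.8 RPM), a ratio of 5.74 in favour of pFF (5.14 to 6.43). The same combination led in both libraries, with 27.0% of the reads in pEGC (22.6 to 31.9) and 37.1% in pFF (35.1 to 39.1), and no other read lay within 10 kb. On F lay 16.4% of its reads in pEGC (12.7 to 20.6) and 5.84% in pFF (4.90 to 6.90). The second, from 79769826 to 79769881, had 1226 and 1345 reads (95.0 RPM and 98.4 RPM) with a ratio close to 1 at this scaling (0.97 in pEGC over pFF, 0.89 to 1.04). Under 3 other scalings of the libraries, its log2 ratio of -0.05 became -0.82, -0.85 and -0.41, outside that interval. Of its reads, 2.12% in pEGC (1.39 to 3.09) and 1.19% in pFF (0.681 to 1.93) lay on F. Its profile of reads over 28 combinations was almost the same in both libraries (r = 0.99).

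Of the 10 deepest members, 1 had more than 50% of its pooled reads on a single combination. On chromosome 9 from 69821077 to 69821136 there were 658 reads in pEGC and 1082 in pFF, and none on F in either library. A single start on R held 75.5% of the reads in pEGC (72.1 to 78.8) and 82.8% in pFF (80.4 to 85.0). The r between the libraries over 13 combinations was 1.00, which that start nearly fixes. More than 50% of the reads lay on 1 combination in 14 of the 306 members, of which 12 were one-sided. The most read combination held a median of 14.7% of a member's reads, from 4.19% to 97.0%.

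Other deep members held the same positions in unequal proportions. The member on chromosome 16 from 6856757 to 6856812 had 605 and 1112 reads, used 43 of 46 possible combinations and had 53.7% of the pEGC reads (49.7 to 57.8) but 15.7% of the pFF reads (13.6 to 18.0) on F. On chromosome 14 from 73822505 to 73822556, 861 and 738 reads shared 29 combinations, yet 25.6% of the pEGC reads (22.7 to 28.6) and 76.4% of the pFF reads (73.2 to 79.4) lay on F, and r was 0.14. Chromosome 7 from 118711568 to 118711632, with 510 and 990 reads, had 75.1% (71.1 to 78.8) and 40.8% (37.7 to 43.9) on F. In these last 2 members the pooled reads were balanced, at 49.0% and 52.5% on F, while the libraries leaned to opposite strands. The largest such gap was 51.6 percentage points, on chromosome 3 from 111401115 to 111401156, with 28.1% of 313 pEGC reads (23.2 to 33.4) and 79.7% of 448 pFF reads (75.7 to 83.3) on F. It was named for this gap after the values were seen. A member on chromosome 9 from 27813348 to 27813422 was closer, with 830 and 892 reads and 35.9% (32.6 to 39.3) and 21.2% (18.6 to 24.0) on F.

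**Figure D2:**
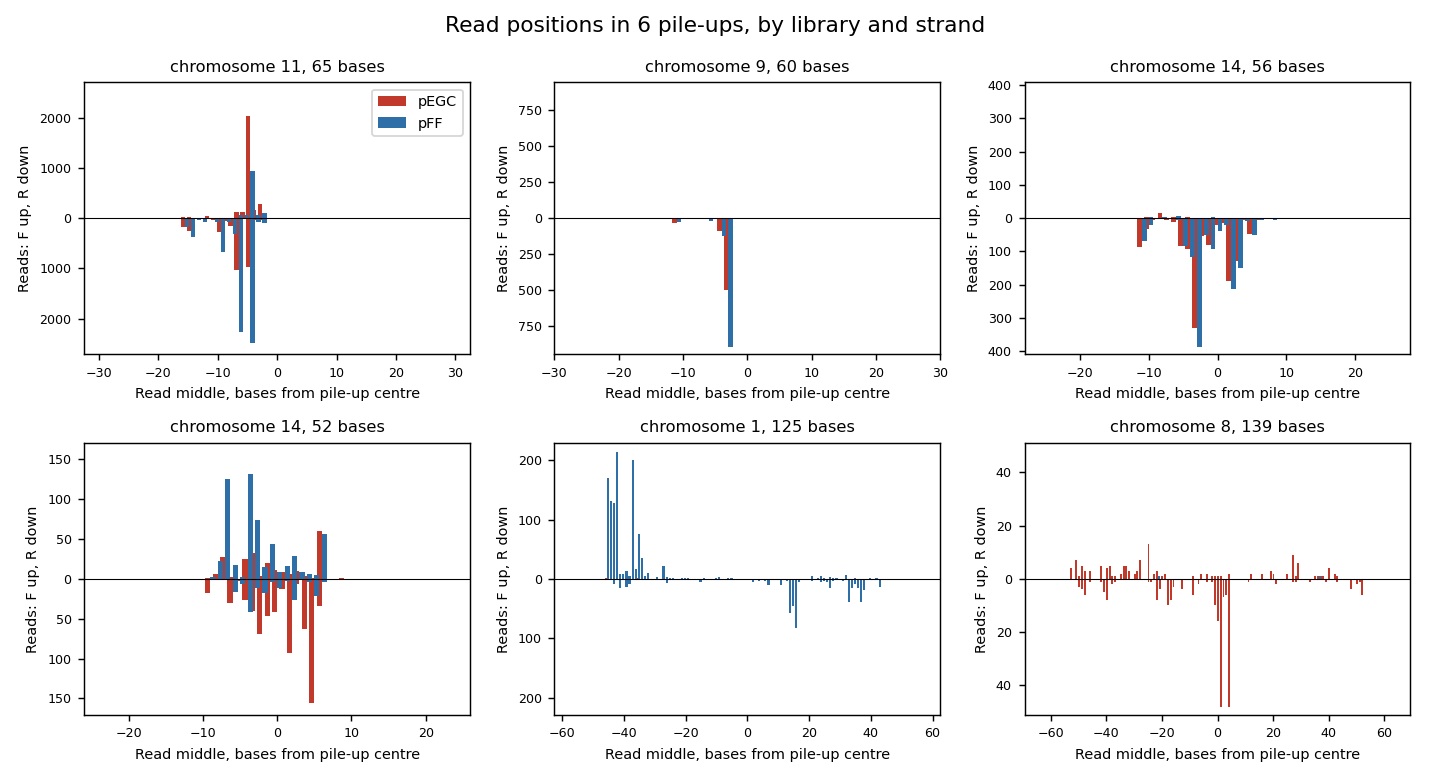
Reads (vertical, F above and R below the line) by position of the middle of the read (horizontal, bases from the centre of the pile-up) for 6 members, with pEGC in red and pFF in blue, drawn side by side at each position. Upper row: the deepest member, the chromosome 9 member with 1 leading start on R, and the R-sided chromosome 14 member with near equal RPM. Lower row: the chromosome 14 member of 52 bases whose libraries lean to opposite strands. After it come a chromosome 1 member read almost only in pFF and a chromosome 8 member read almost only in pEGC.

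Members with at most 10 combinations were narrow stacks, 36 to 113 bases wide with a median of 40. The most extreme lay on chromosome 14 from 87677057 to 87677094, where 242 reads in pEGC and 239 in pFF used only 3 combinations and 1 of them held 93.4% (89.5 to 96.2) and 99.6% (97.7 to 99.99) of the reads. The deepest, on chromosome 2 from 90236968 to 90237080, had 447 reads in pEGC and 674 in pFF on 9 combinations, with 99.6% (98.4 to 100.0) and 100% (99.5 to 100) on F. Chromosome 5 from 57210943 to 57210980 held 557 and 127 reads on 8 combinations and was 4.65-fold higher in pEGC (3.82 to 5.68), the only one of the 12 that passed the 4-fold rule given below. It used 6 combinations in pEGC and 7 in pFF of 10 possible. Its log2 ratio of 2.22 became 1.42 to 1.85 under 3 other scalings, where it did not pass that rule. Chromosome 9 from 116341739 to 116341839 had 258 and 125 reads on 7 combinations, and chromosome 4 from 55949667 to 55949704 had 235 and 118 on 8. In all of these 5 members the leading combination was the same in both libraries, and the correlation over combinations ran from 0.92 to 1.00. Over only 3 to 9 combinations a correlation carries little information. Where 1 combination holds most reads in both libraries, as on chromosome 14, it is nearly fixed.

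Distance to the next region separated the members further. No other kept region lay within 10 kb of 64 members (isolated), and at least 1 lay within 10 kb of 242 (called exon-like here for their spacing alone, since no annotation was used). Isolated members made up 20.9% of the members, 12.3% of the deep regions of 151 to 300 bases and 6.81% of all wider deep regions. They were narrower than exon-like members (median 73 against 120 bases), used fewer combinations (31 against 57.5) and read each of them more often (16.1 against 5.41 times). One-sided members numbered 29 of 64 among the isolated and 67 of 242 among the exon-like.

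The surroundings of isolated pile-ups were nearly empty. Counting every aligned read and not only those in regions, the 20 kb around an isolated member held a median of 2 reads over both libraries, from 0 to 154, and 21 of the 64 had none at all. All 64 held more reads than those surroundings, which the rules nearly fix, since a member holds at least 200 reads and an isolated one has no region of 20 reads or more within 10 kb. Around exon-like members the median was 1228 reads, and 37 of 242 held more reads than their surroundings. Among the 5 deepest isolated members, the surroundings held 0, 0, 2, 7 and 3 reads for the members on chromosome 11, chromosome 14 at 97258459, chromosome 4 at 97087005, chromosome 9 at 69821077 and chromosome 9 at 27813348. Of the isolated members 36 of 64 (56.2%) lay within 2-fold between the libraries, near the 53.9% of all wider deep regions, with a median log2 ratio of pEGC over pFF of 0.04. By the 4-fold rule given below 4 (6.25%) were higher in pEGC and 7 (10.9%) in pFF. The shares were 7.44% and 18.2% of exon-like members, and 9.03% and 15.3% of deep regions of 151 to 300 bases. All deep regions, which are mostly far wider, had 14.9% and 6.53%. The pFF share of isolated members was thus below that of the sets closer in width, and the difference was not tested.

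Exon-like members could be set beside their neighbours. For 210 of them the other regions within 10 kb held at least 200 pooled reads, and the log2 ratio of pEGC over pFF was taken for the member and for the summed neighbours. Both had the same sign in 166 of 210, and they lay within 1 log2 unit of each other in 145. Across these members the values correlated with Pearson r = 0.93 and Spearman rho = 0.77, as a description, since members and neighbours share both libraries. Deep regions of 151 to 300 bases were much alike in this. There the sign was the same in 418 of 539 (77.6%, members 79.0%), and 77.6% lay within 1 log2 unit (members 69.0%). Pearson r was 0.93 and Spearman rho 0.83 in these wider regions. Likeness to neighbours was thus not particular to the members. Split by strand balance, the sign was the same for 67 of 71 balanced, 61 of 82 skewed and 38 of 57 one-sided members, and the values differed by more than 2 log2 units for 1, 3 and 10 of them. Spearman rho was 0.94 in balanced, 0.72 in skewed and 0.56 in one-sided members. The difference between these groups was not tested. Members within 10 kb of each other also count among each other's neighbours, so these counts are not over independent members. A single locus on chromosome 1, described below, gave 14 of the 210 members, 9 of them balanced. Its members had log2 ratios from -8.58 to -5.38 beside neighbours from -8.46 to -6.64, and they widen the range over which the values correlate.

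Of the 14 members more than 2 log2 units from their neighbours, 5 are given here, chosen after the values were seen. On chromosome 17 from 53686933, a one-sided member had 18 reads in pEGC and 184 in pFF, a log2 ratio of -3.27, while 3 neighbouring regions together stood at 0.51. A skewed member on chromosome 13 from 105356198 had 242 and 37 reads, a log2 ratio of 2.79, beside neighbours at -0.74. On chromosome 7, a one-sided member from 133001436 stood at -1.52 beside neighbours at 1.19, and another from 82354497 at 2.59 beside neighbours at 0.10. Others of the 14 had the sign of their neighbours but a smaller ratio, such as a member on chromosome 6 from 22094255 at 2.22 beside neighbours at 4.98.

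**Figure D3:**
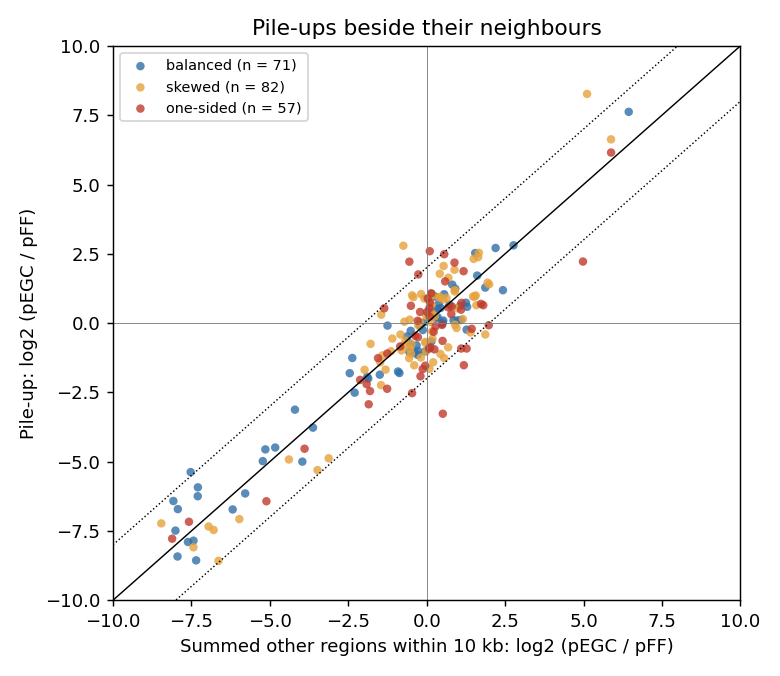
log2 ratio of pEGC over pFF of each of 210 pile-ups (vertical) against that of the summed other regions within 10 kb (horizontal), coloured by strand balance, with the line of equality and dotted lines 2 log2 units away. Balanced members follow the line from -8.56 to 7.62, and 10 of the 14 points beyond the dotted lines are one-sided.

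The libraries were then compared at each member. The rule for a difference asked for an RPM ratio of 4-fold or more, for 50 or more reads in the library with the higher RPM, and for an interval of that ratio wholly beyond 2-fold. By this rule 22 of the 306 members were higher in pEGC, against 14.9% of all 14425 regions with at least 200 pooled reads and 8.75% of all kept regions. Higher in pFF were 51 members, against 6.53% of the deep regions and 3.05% of all kept regions. Members thus had 7.19% and 16.7% in the 2 directions, while deep regions at large had the larger share on the pEGC side at this scaling. The remaining 233 members did not pass, and 153 lay within 2-fold. Over the members the log2 ratio (pEGC over pFF) had a median of -0.10, beside 0.57 over all deep regions. A trimmed mean of M-values (a scaling that centres most regions) lowered every log2 ratio by 0.77, which made it 9 members (2.94%) higher in pEGC and 82 (26.8%) higher in pFF, beside 9.39% and 10.2% of the deep regions. The pEGC part of the called members was 30.1% with the total of reads in regions and 9.89% with that scaling.

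Width went along with this order among deep regions. The share higher in pFF was 11.6% in the 69 members of 75 bases or less, 18.1% in the 237 members of 76 to 150 bases, 15.3% in regions of 151 to 300 bases, 11.4% from 301 to 600, 7.88% from 601 to 1200 and 4.78% beyond 1200 bases. The share higher in pEGC was 8.70%, 6.75%, 9.03%, 9.81%, 10.5% and 17.0% in the same order. Balanced strands made up 24.6% of the narrowest and 95.8% of the widest group. Widths of regions depend on depth and on how densely a library covers a transcript, and their part in these shares was not tested.

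**Figure D4:**
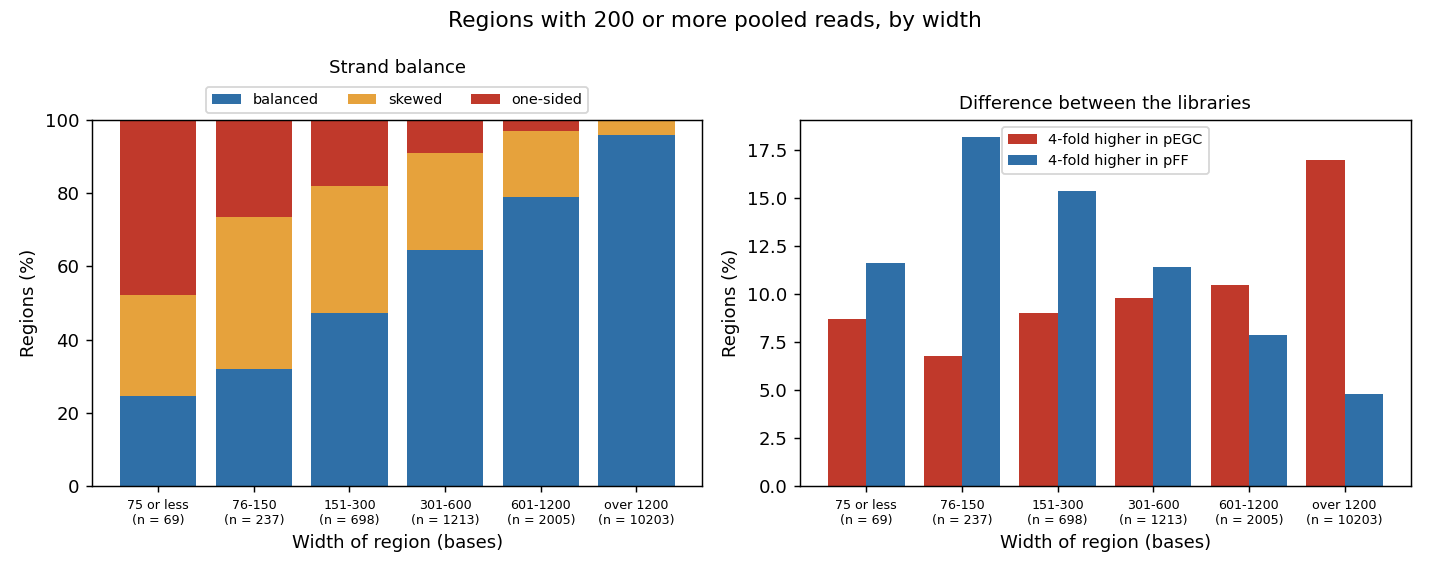
Regions with at least 200 pooled reads grouped by width (horizontal, with the number of regions), as the percent in each class of strand balance (left) and the percent that are 4-fold higher in pEGC (red) or pFF (blue) (right). The members are the 2 narrowest groups; blue bars exceed red bars up to 600 bases, and the order turns beyond.

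A single locus on chromosome 1 gave 14 of the 51 members higher in pFF. These members lay between 128658512 and 128764201 and spanned 119 to 144 bases, with a median of 129. Each was read 272 to 1600 times in pFF and 0 to 7 times in pEGC. Together they had 8540 reads in pFF and 41 in pEGC, or 625 RPM and 3.18 RPM, a 197-fold difference (145 to 274). The members are parts of the same locus and not independent. Without it 37 of the other 292 members were higher in pFF (12.7%), and with 1 member per group of members within 10 kb, 35 of 267 (13.1%).

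Within the chromosome 1 locus the reads lay on many combinations. Members held 69 to 102 combinations with a median of 90, and 47.6% of the possible ones. Strands did not follow 1 direction along the locus: 9 members leaned to F and 5 to R, with 13.3% to 91.1% of the reads on F, and 9 were balanced, 4 skewed and 1 one-sided. A run of 8 of them, each within 10 kb of the next, from 128678676 to 128713250, had pFF reads of 405, 308, 489, 505, 666, 570, 272 and 363 and pEGC reads of 1, 7, 2, 2, 6, 3, 3 and 1 in order of position. The pFF counts of the run thus ranged from 272 to 666, and the pEGC counts were low throughout. The 2 deepest of the locus lay from 128744521, with 1600 pFF reads and 4 pEGC reads (378-fold, 147 to 1388), and from 128748572, with 1443 and 5 (273-fold, 117 to 841). Their leading combination held 13.4% (11.7 to 15.1) and 29.7% (27.4 to 32.2) of the pFF reads. In the other members of the locus it held 4.20% to 21.2%. At the 2 deepest, the 5 most read combinations held 52.7% and 61.9% of the pooled reads, above the median of 45.8% over all members. At the pair with no pEGC read, from 128658512 with 698 pFF reads and from 128667040 with 476, no exact ratio exists. With 3 reads in place of a count of 0, the ratios in favour of pFF were 220 and 150. Their counting intervals started at 178 and 121 and had no upper end.

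Elsewhere, the largest ratio in favour of pFF was that of the isolated member on chromosome 4 from 97087005 to 97087112. It had 1926 reads in pFF and 2 in pEGC, or 140.9 RPM and 0.155 RPM (909-fold, 251 to 7514). All but 1 of the pFF reads lay on R, on 35 combinations, and only 2 other reads lay within 10 kb. It therefore differs from the chromosome 1 members in strand and surroundings while resembling them in the ratio.

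Members higher in pEGC were fewer and shallower, with a median of 285.5 pooled reads against 415 for those higher in pFF. The largest ratio lay on chromosome 1 from 267973135 to 267973277, where pEGC had 291 reads and pFF had 1 (308-fold, 54.9 to 12214). Its neighbours were also higher in pEGC, at a log2 ratio of 5.11, but 3.15 log2 units less so. Members on chromosome 8 followed, not within 10 kb of each other. The region from 58969151 to 58969289 had 372 and 2 reads, which is a ratio of 197 (54.2 to 1633). The one from 58933414 to 58933545 had 467 and 5, a ratio of 98.9 (42.1 to 306). Their neighbours stood at log2 ratios of 6.44 and 5.88, so the regions within 10 kb of each were also read mostly in pEGC. Those of the latter include a further member, ending at 58935268, at a log2 ratio of 6.15. Chromosome 14 from 116147078 to 116147178 had 437 and 6 reads (77.1-fold, 35.1 to 211) on 84 combinations. Chromosome 13 from 67948189 to 67948301 had 217 and 3 reads (76.6-fold, 25.9 to 374) and was isolated, with 44 other reads within 10 kb. The chromosome 8 member at 58969151 was balanced and the others were skewed, and they used 64 to 84 combinations.

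Of the one-sided members 7 (7.29%) were higher in pEGC and 15 (15.6%) in pFF, of the skewed 11 (9.40%) and 14 (12.0%), and of the balanced 4 (4.30%) and 22 (23.7%). All deep regions had 14.9% and 6.53%, and those of 151 to 300 bases 9.03% and 15.3%. In either direction the shares of one-sided, skewed and balanced members were 22.9%, 21.4% and 28.0%. These lay near the 21.3% of all wider deep regions and the 24.4% of those of 151 to 300 bases. The balanced count for pFF includes 9 members of the chromosome 1 locus. Of the 12 members with at most 10 combinations 1 was higher in pEGC and none in pFF, of the 125 with 11 to 50 combinations 11 and 16, and of the 169 with more 10 and 35. Counts of 3 reads or fewer in pEGC were found in 17 members and in pFF in 3, and 16 of these 17 and all 3 had over 50 combinations. Of the 17, 9 belong to the chromosome 1 locus.

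Most members stood alone: 237 had no other member within 10 kb, and 69 fell into 30 groups. After the run of 8 on chromosome 1 the largest groups had 3 members. One on chromosome 2 from 104169571 to 104179324 had 2810 reads in pEGC and 1152 in pFF (2.58-fold higher in pEGC, 2.41 to 2.77), and its members ranged from 1.14 to 1.92 in log2 ratio. Its first member, from 104169571 to 104169704, had 1107 and 512 reads on only 12 combinations, with 94.3% (92.8 to 95.6) and 58.6% (54.2 to 62.9) on F, while the other 2 had 60 and 71. It lay in the densest surroundings of all members, with 129192 reads within 10 kb. The group on chromosome 5 from 63193377 to 63199725 had 677 and 889 reads (1.24-fold higher in pFF over the sum, 1.12 to 1.37), but its members ranged from -0.88 to 1.04 in log2 ratio and so went in both directions. The group on chromosome 9 from 51283749 to 51298849 had 463 and 300 (1.63-fold higher in pEGC, 1.41 to 1.90), with members from 0.26 to 1.05. Its log2 ratio of 0.71 is smaller than the 0.77 by which the trimmed mean of M-values lowers every log2 ratio.

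Every chromosome held pile-ups. Chromosome 1 had the most, 39, and chromosome 11 the fewest, 4, which included the deepest of all. Set against regions with at least 200 pooled reads, there were 10.2 members per 1000 on chromosome 12 and 28.7 on chromosome 10, with 23.1 on the X chromosome. The small numbers per chromosome limit these rates, and each chromosome had 2 to 5 isolated members.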

How the data were processed

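The authors deposited 1 file per library with 1 aligned read per line (chromosome, start, end, strand), repeated lines kept. Per the labels' protocols, total RNA went through 2 poly(A) selections and DNase before fragmentation, random hexamers primed the cDNA, and no step keeps the strand. For the aligner, the genome build and reads with several matches the entry is "not given in the sources used here". A read that matches several places could be left out or placed at 1 of them. Regions, counts, RPM, strand shares, distinct positions and distances were computed here with Python 3.11.15, NumPy 2.4.6, pandas 2.3.3 and SciPy 1.17.1, drawn with Matplotlib 3.10.9 and checked on simulated reads. A count of 0 was replaced by 3 reads (0.232 RPM in pEGC, 0.219 RPM in pFF). Members, lists and rules were chosen with earlier results of these data known. Named are the 10 deepest members, the 5 largest ratios in each direction among called members with 200 or more reads in the library that was higher, the 3 deepest of each strand group, the 5 deepest with at most 10 combinations, the 5 deepest isolated and the largest groups. Alternatives covered scaling, repeated positions, thresholds and the joining distance.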

Additional observations from a re-analysis of the deposited data

How the results depend on the processing

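No paired analysis was possible because each culture had 1 library. The 306 members became 114 with widths up to 100 bases and 547 up to 200, 771 with 100 pooled reads and 114 with 400, and 730 and 173 with reads joined within 100 and 300 bases. In these 6 settings, where fewer or more regions qualify, the members higher in pEGC (22) numbered 10, 43, 64, 8, 64 and 16, those higher in pFF (51) 12, 84, 121, 28, 139 and 34, the one-sided members (96) 53, 142, 200, 40, 215 and 59, the isolated members (64) 40, 98, 132, 32, 95 and 54, and those with at most 10 combinations (12) 9, 14, 20, 3, 19 and 8. The median log2 ratio moved from -0.10 to -0.64 with 400 pooled reads, was 0.11 with widths up to 100 bases and ran from -0.14 to -0.07 in the other 4. More members were higher in pFF than in pEGC in every setting tried. The trimmed mean of M-values gave 9 and 82, with a median of -0.87, and the median of ratios 8 and 83, with -0.89, by construction of scalings that raise pFF. Totals without the chromosome 6 block gave 15 and 64, with -0.46. With each position counted once there were 6 and 35, with a median of -0.62, the value that equal numbers of combinations give. Members filled a median of 38.0% of their possible combinations, and the part that this limit plays was not tested. All deep regions had 14.9% higher in pEGC and 6.53% in pFF with the total of reads in regions. They had 9.39% and 10.2% with the trimmed mean, 9.28% and 10.4% with the median of ratios, and 11.9% and 7.85% without the block. Members had 2.61% and 27.1% with the median of ratios, and 4.90% and 20.9% without the block. Shares over all deep regions were not taken for the other settings of depth, joining or positions. A one-sided limit of 80% gave 156 members, counting positions once gave 27, and a limit of 20 combinations gave 29. The ratio of the chromosome 5 member at 57210943 became -0.84 with positions counted once, where it used 6 and 7 of 10 possible combinations and a difference could not show, and its call was lost under all 3 scalings. Among the other named members, no called ratio changed direction. Of their ratios 11 kept their call or stayed within their counting interval under each scaling, and 11 with positions counted once. Uncalled ratios left that interval in 12 members with the trimmed mean, 12 with the median of ratios and 13 without the block. With positions counted once 11 did. The chromosome 1 member at 59802434 became called in pFF under the trimmed mean and the median of ratios (log2 -2.10 and -2.13). With positions counted once, the members on chromosome 14 at 97258459 (-0.84) and chromosome 4 at 97087005 (-4.79) lost their call. Neither had 50 combinations in a library. Choices added after the data were seen (1 member per group, no chromosome 1 locus, 50 reads in each library, neighbours within 20 kb) moved no count by over 1.5 times. The counting interval of a member's log2 ratio reached a median of 0.37 to either side and further where a library had few reads.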
